A study of Mus musculus with 10 samples.

Results

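The eukaryotic translation initiation factors, encoded by the Eif genes, bring the ribosome, the initiator tRNA and the messenger RNA together before protein synthesis begins. In outline, eIF2 carries the initiator tRNA to the small ribosomal subunit, eIF1 and eIF1A hold this subunit open while it scans for a start codon, eIF3 acts as its scaffold, and eIF4F recruits it to the mRNA cap. In T cells, which leave a quiet state when they meet antigen, initiation is a known point of control, through phosphorylation of eIF2 by stress kinases and through the eIF4E-binding proteins that mTORC1 inactivates. These controls act largely on proteins, so that RNA levels give the supply of the factors and not their activity.

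RNA was measured by bulk sequencing in CD3+ T cells isolated from the spleen, with 5 libraries of PBS-treated mice (replicates 1 to 5) and 5 libraries of mice with ovalbumin (OVA)-induced experimental asthma (replicates 6 to 10). OVA is chicken-egg ovalbumin, given by intraperitoneal injection in aluminum hydroxide once a week for 2 weeks and then into the nose, and PBS is the saline control. Per the study's methods, asthma was induced between 4 and 6 weeks of age. The age of the mice at spleen collection is not given in the sources used here. All mice of both groups were Nf1OPG mice on a C57BL/6 background, in which 1 copy of the neurofibromatosis gene Nf1 is mutant throughout the body and the other is removed by a Cre recombinase under the GFAP promoter, which acts in neuroglial progenitors. The T cells of both groups therefore carried 1 mutant copy, and no group without it was compared here. Whether a library holds 1 mouse or pooled spleens is not stated, so that p-values measure the spread between these libraries. OVA replicates 6, 7 and 8 held both Xist, the RNA of the inactive X chromosome (516, 402 and 369 normalized counts), and Y-linked RNA (Ddx3y and Uty summed to 636, 461 and 784), which goes against taking each of them as 1 mouse. The comparisons were therefore also run without these 3 libraries, an alternative chosen after the data were seen. This alternative keeps OVA replicate 10, in which Xist was at 656 and Ddx3y and Uty summed to 0. Xist was at most 4.30 in the PBS libraries and at 3.60 in OVA replicate 9. Sex-linked composition therefore differed between the groups, and its part cannot be told apart from that of the treatment for any member.

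Members were all protein-coding genes of the deposited table whose symbol is Eif followed by a digit, 55 of 20617 rows. Another 9 rows with such a name are pseudogenes and were used only beside the genes they copy. The gene names of the table stand in alphabetical order and are out of step with the values. Each member was therefore given the values 6 rows above its name. A hidden Markov model, which compared the mean level of each row with the annotation of the names and used no groups, gave 6 rows as the most probable distance for all 55 members, with a probability from 0.665 for Eif6 to 0.987 for Eif1 and of at least 0.9 for 27 of them. A measure that this model did not use came from the Y chromosome. Exactly 4 rows of the table held 0 reads in OVA replicate 10 and at least 50 normalized counts in every other library, and the model placed them on Ddx3y, Eif2s3y, Kdm5d and Uty, all Y-linked genes, although Kdm5d with a probability of only 0.781. The names of members with a low probability remain less certain than their values.

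A normalized count is a read count divided by the size factor of its library. Reads recovered from the deposited values ranged from 6835696 in PBS replicate 3 to 29915782 in OVA replicate 7. At 3 reads, taken as the floor of detection, a gene has 8.31 normalized counts in PBS replicate 3 and 1.88 to 3.60 in the other libraries, which covers counting error only. All 12 T cell markers examined were placed, at a median percentile of 98.8 among the tested rows, and their summed level was 100748 to 191289 normalized counts in PBS and 126561 to 171197 in OVA. Markers of some other cells differed in level between the groups. At an unadjusted p under 0.05 (limma), 2.65% of all rows were lower in OVA and 7.12% higher. The 4 plasma cell markers summed to 14923 to 91398 in PBS and 8753 to 28395 in OVA, with 3 lower at this threshold. The 6 B cell markers summed to 750 to 2455 in PBS, and 2 were higher in OVA. Their sum was 6828 in OVA replicate 6 and 777 to 2514 in the other OVA libraries. Of 8 stromal markers, 4 were placed. These summed to 9.47 to 41.5 in PBS and 91.0 to 133 in OVA, all 4 higher. Of the 6 erythroid markers 1 was lower, of the 6 macrophage markers 1 was higher, and of the 5 placed neutrophil, 5 endothelial and 3 NK cell markers none passed. None of these markers was at 0 in every library and none passed an adjusted p of 0.05. The part of other cells in the differences of the Eif genes was not tested. In bulk samples, fewer cells of a type and less RNA per cell cannot be told apart.

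Several members have close copies in the genome, which decides how far their reads can be assigned, and the coding sequences that matter for the results are shown first. Eif2s3x and Eif2s3y encode the gamma subunit of eIF2 on the X and the Y chromosome. Their coding sequences, in GENCODE M21 transcripts of GRCm38, are both 1419 bases long and differ at 194 of them (86.3% identity), with no stretch of more than 34 bases without a difference. The first 90 coding bases are given 5′ to 3′, from chrX:94211762-94212633 on the minus strand and chrY:1010617-1011280 on the plus strand, spanning an intron in each case, with the 16 differing bases in capitals.
Eif2s3x: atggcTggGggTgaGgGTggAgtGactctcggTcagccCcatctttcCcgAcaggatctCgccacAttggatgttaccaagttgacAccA
Eif2s3y: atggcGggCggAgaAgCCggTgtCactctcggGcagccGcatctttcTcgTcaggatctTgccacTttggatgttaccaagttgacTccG

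Eif1, the start codon selection factor, has a paralog, Eif1b, with 64 differences over 342 coding bases (81.3% identity) and no identical stretch above 25 bases. Its first 90 coding bases (chr11:100320130-100320724, plus strand) and those of Eif1b (chr9:120492811-120494165, plus strand) differ at 13 positions, shown in capitals.
Eif1: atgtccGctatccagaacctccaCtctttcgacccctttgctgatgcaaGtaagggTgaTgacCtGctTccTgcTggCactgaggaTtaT
Eif1b: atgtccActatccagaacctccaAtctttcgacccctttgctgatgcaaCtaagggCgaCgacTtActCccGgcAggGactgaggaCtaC

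Other copies are much closer. Eif4a1, the main RNA helicase of the cap-binding complex, and the processed pseudogene Eif4a-ps4 differ at a single base of 1218 (99.9% identity). That base is in capitals in the 61 bases around it, at chr11:69668704-69669088 on the minus strand, which spans an intron, and at chr1:60704435-60704495 on the plus strand.
Eif4a1: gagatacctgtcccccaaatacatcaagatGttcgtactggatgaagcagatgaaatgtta
Eif4a-ps4: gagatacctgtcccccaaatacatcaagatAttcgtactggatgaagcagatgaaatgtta

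Eif3j1 and Eif3j2, which encode the loosely bound eIF3j subunit, differ at 2 of 786 coding bases. Eif1 is 97.6% identical to Eif1-ps1, and Eif5a is 97.3% identical to Eif5al3-ps. Eif4a3, a helicase of the exon junction complex, is 96.2% and 96.8% identical to Eif4a3l1 and Eif4a3l2. For these pairs the division of reads depends on how the authors' counting treated reads that match both copies, and their single values are uncertain.

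The members were expressed over a wide range, in every role. On the scale of normalized counts, not corrected for length, their means over the 10 libraries ran from 18.2 for Eif4a3l1 to 20701 for Eif3h, with a median of 1498, and the median member stood at percentile 90.6 of the tested rows. All 55 members passed the minimum mean of 1, and 54 were above 3 reads in every library. The exception was Eif2s3y, with 0 reads in OVA replicate 10. Levels are compared between genes only per kilobase of the principal GENCODE transcript.

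Per kilobase, the eIF3 genes spanned 24.8 (Eif3j1) to 15986 (Eif3h). Below Eif3h, the genes Eif3k, Eif3i and Eif3e stood at 12114, 7014 and 6453 normalized counts per kb, followed by Eif3m (3791), Eif3l (3129), Eif3g (2576), Eif3d (2111) and Eif3c (1578). Eif3a, the largest subunit, was at 658 and Eif3b, which with Eif3a forms the core that holds the complex together, at 220. Eif3a ranged from 450 to 773 and Eif3b from 173 to 398 over the libraries and did not overlap, but Eif3f stood between them at 397 (329 to 611) and overlapped both. The lowest were Eif3j2 at 198 (119 to 315) and Eif3j1 at 24.8 (7.83 to 51.8). Eif3h (12823 to 22510) and Eif3k (8077 to 20529), next to each other at the top, overlapped as well. Reads that match the eIF3e pseudogenes or other copies were not resolved here.

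Eif1 (13156 per kb) and Eif5a (13198 per kb), whose product helps the ribosome through difficult peptide bonds and carries the amino acid hypusine, overlapped in range and formed the top of the list with Eif3h and Eif3k. The other genes grouped with the scanning factors stood between 418 (Eif1ax) and 822 (Eif1b) per kb. The eIF2 subunits Eif2s1 (1099) and Eif2s2 (1071) were close to each other, with ranges of 933 to 1479 and 883 to 1522. The 4 stress kinases spanned a wide range of levels. Eif2ak1, the heme-regulated kinase, was at 184 per kb, Eif2ak2, the double-stranded RNA kinase PKR, at 90.3, Eif2ak3, the endoplasmic reticulum kinase PERK, at 13.9 and Eif2ak4, the amino acid sensor GCN2, at 9.17. In eIF2B, the exchange factor that recharges eIF2 with GTP, the catalytic subunit Eif2b5 was lowest at 102 and Eif2b2 highest at 764.

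In eIF4F, the scaffold genes Eif4g1 (131 per kb) and Eif4g3 (68.1) stood below the cap-binding protein Eif4e (643) and the helicases Eif4a1 (1738) and Eif4a2 (1728). The values of Eif4a2 (1317 to 2029) and Eif4a1 (1237 to 2474) overlapped. Those of Eif4a1 leave out the reads counted for Eif4a-ps4, which differs at 1 coding base. Eif4a1 held 41.6% to 51.6% of the sum of both, so that its level beside Eif4a2 is uncertain. Eif4g2, an eIF4G relative that lacks the cap-binding protein's contact site, was at 2092 per kb with the longer of its complete transcript models (7995 bases) and at 4714 with the shorter (3548 bases). Other members may also depend on the chosen model. Eif5a2, a paralog of Eif5a, was at 12.01 and Eif4a3l1 at 11.5 per kb.

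**Figure D1:**
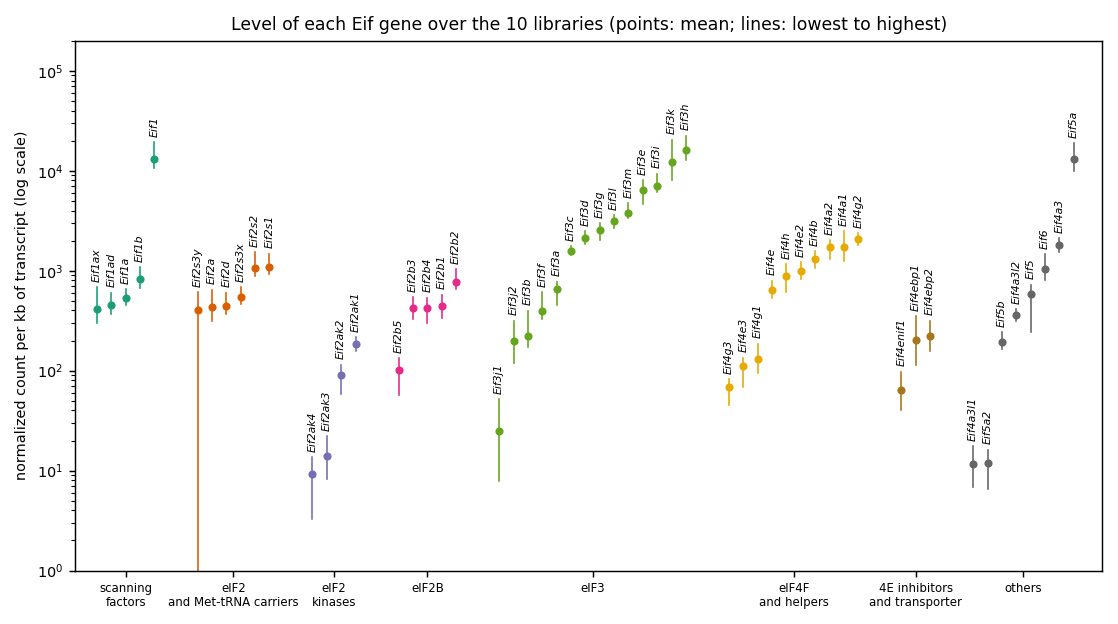
Level of each of the 55 Eif genes by role, in normalized counts per kilobase of its transcript on a log axis; points are means over the 10 libraries and lines run from the lowest to the highest library. Eif3h, Eif5a, Eif1 and Eif3k stand highest, at 15986 to 12114 per kb, the kinases Eif2ak3 and Eif2ak4 at 13.9 and 9.17, and the line of Eif2s3y reaches the lower edge of the axis because OVA replicate 10 has 0 reads.

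The comparison of OVA with PBS asks whether experimental asthma altered the initiation machinery of the splenic T cells. No member changed at an adjusted p under 0.05 (limma on log2(normalized count + 1), Benjamini-Hochberg adjustment over 20249 rows), and the lowest adjusted p was 0.310, for Eif1. Of all rows tested, 1 passed (0.00494%). On the recovered reads, edgeR called 0 of the 55 members and 0.00988% of all rows, and DESeq2 called 0 members and 0.854% of all rows, with lowest adjusted p values of 0.347 and 0.0840 among the members. At an unadjusted p under 0.05, limma, edgeR and DESeq2 each passed 3 members (5.45%), against 9.77%, 9.06% and 9.27% of all rows, so that the members' share was below the background. These 3 were Eif1 and Eif4e, lower in OVA (2.65% of all rows were lower), and Eif2ak2, higher in OVA (7.12% of all rows were higher).

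With the deposited scaling, 40 of the 55 members had a lower mean in OVA and 15 a higher one, or 72.7% lower against 45.5% of all rows. Their median log2 difference was -0.10, beside 0.04 over all rows tested. With edgeR, DESeq2 or a minimum mean of 10, 40 members were again lower, against 49.23%, 49.68% and 49.98% of all rows. The number of members lower depended on the scaling, and so did the share of all rows. With each library at the same total, which moved the median of all rows to 0.15, 25 members were lower (45.45%, against 32.97% of all rows). The members' median was then 0.0081, still 0.14 below that of all rows. With quantile normalization 29 members were lower (52.73%, against 50.44% of all rows) and their median was -0.016, beside -0.0038 for all rows. The members made up 0.986% ± 0.025 of all normalized counts in PBS and 0.963% ± 0.048 in OVA (SD, n = 5 each), and these groups overlapped. In single libraries, the median over the members of the deviation from each gene's own mean ran from -0.02 to 0.12 in PBS and from -0.08 to 0.05 in OVA on the log2 scale.

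The measurements were precise for most members. The median standard error of the log2 difference was 0.158 for the members and 0.319 for all rows. The 95% interval of the difference lay within 1.5-fold in either direction for 39 of the 55 members, and within 2-fold for 49.

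**Figure D2:**
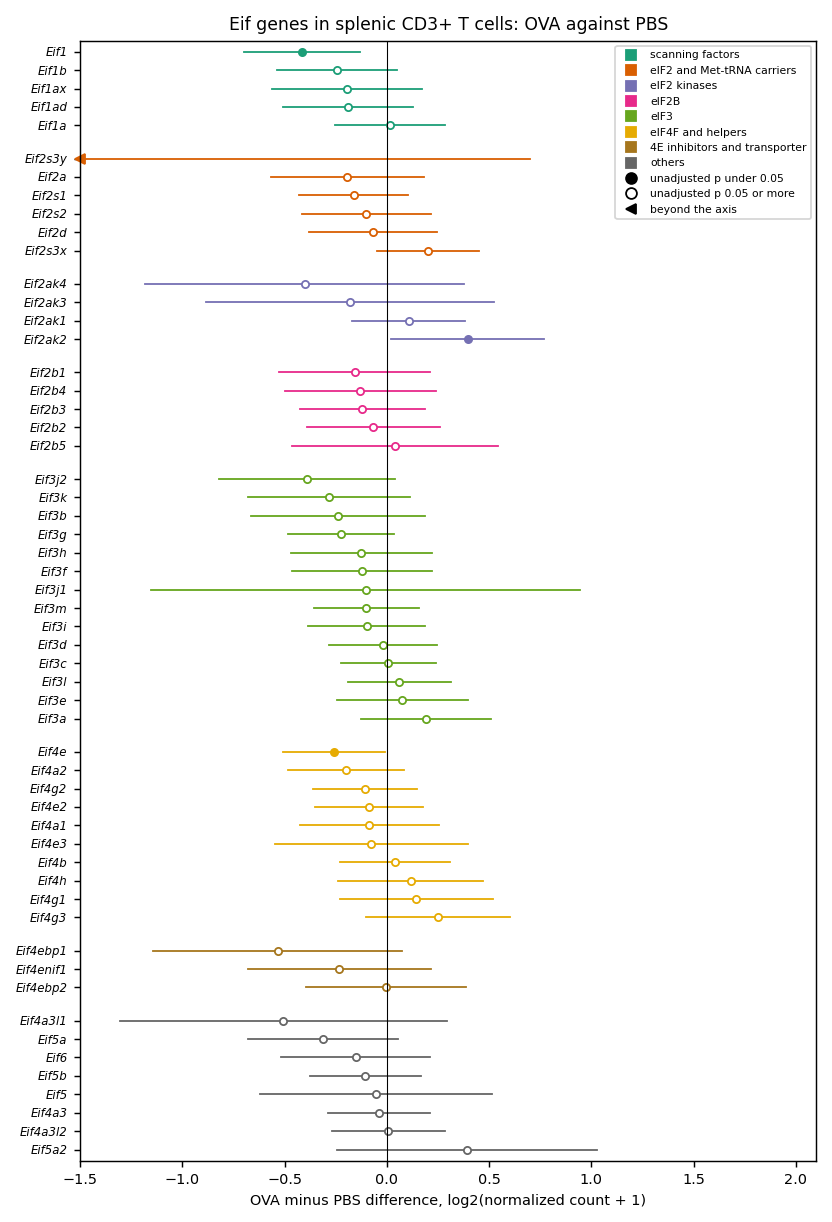
OVA minus PBS difference of each Eif gene on the log2(normalized count + 1) scale, by role, with 95% confidence intervals from limma (n = 5 libraries each); filled points have an unadjusted p under 0.05, and none passed the adjusted threshold. Eif1 (-0.41), Eif4e (-0.26) and Eif2ak2 (0.39) are the filled points, and Eif2s3y (-2.33) lies beyond the axis.

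Scanning factors keep the small subunit competent to search for a start codon. Of the 5 genes grouped with them by name, which include Eif1ad, 4 had lower means in OVA, with a median of -0.19. Eif1 was the only member of the 55 whose groups did not overlap (0.356% of all rows were lower in OVA without overlap, and 1.78% did not overlap in either direction). It had 25400, 20140, 18289, 19073 and 16856 normalized counts in PBS replicates 1 to 5 and 14333, 15407, 15224, 13930 and 15274 in OVA replicates 6 to 10. Every OVA library was below every PBS library, PBS replicate 1 was the highest, and the OVA libraries lay close together. The means were 19952 ± 3273 and 14834 ± 660 (SD, n = 5 each), a log2 difference of -0.41 ± 0.13 (SE), with an unadjusted p of 0.0071 and an adjusted p of 0.31 (limma). The exact two-sided permutation p was 0.00794, the smallest that 5 against 5 libraries can give. Without PBS replicate 1 the difference was -0.32. Without OVA replicates 6, 7 and 8 it was -0.44 with an unadjusted p of 0.072 (limma). Summed with Eif1b, Eif1-ps1 and Eif1-ps2, the values were 21890 ± 3502 in PBS and 16338 ± 693 in OVA, a log2 difference of -0.41, and Eif1 held 90.1% to 92.2% of this sum.

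Eif1b ranged from 774 to 1128 in PBS and from 700 to 839 in OVA, a difference of -0.24 (unadjusted p = 0.094, limma). The Eif1A genes of the autosome and the X chromosome showed no such separation. Eif1a, with 1579, 1419, 1869, 1405 and 1352 in PBS and 1580, 1305, 1511, 1607 and 1676 in OVA, differed by 0.02 ± 0.13 (adjusted p = 0.98, limma), with a 95% interval of -0.25 to 0.29. Its groups overlapped except for OVA replicate 7, which was below the lowest PBS library. The X-linked Eif1ax differed by -0.19, with PBS replicate 3 far above the others at 3517 against 1848 to 2259. Eif1ad, which takes part in small subunit maturation, differed by -0.19.

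The 6 genes of eIF2 and of the alternative initiator tRNA carriers had a median difference of -0.13, and none passed an unadjusted p of 0.05. Eif2s1, the alpha subunit that the stress kinases phosphorylate, ranged from 3419 to 5035 in PBS and from 3176 to 3850 in OVA (-0.16), and Eif2s2, the beta subunit, from 2246 to 3869 and from 2293 to 2841 (-0.10). Eif2a and Eif2d, which can deliver initiator tRNA without eIF2, differed by -0.19 and -0.07.

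The gamma subunit was the exception in its pattern across libraries. Eif2s3x had 1710, 1845, 1958, 1760 and 1920 normalized counts in PBS and 1999, 2266, 1944, 1906 and 2506 in OVA. OVA replicates 7 and 10 were the highest, and OVA replicates 8 and 9 lay within the range of PBS. The log2 difference was 0.20 ± 0.12 (adjusted p = 0.59, limma), and the exact two-sided permutation p was 0.0397, not adjusted for the other members. At the same library total the difference was 0.31 (unadjusted p = 0.027, limma) and with quantile normalization 0.29 (unadjusted p = 0.021, limma). Eif2s3y had 1096, 520, 950, 1081 and 1122 in PBS and 639, 479, 802, 822 and 0 in OVA. PBS replicate 2 lay with OVA replicates 6 and 7 well below the others. The difference was -2.33 ± 1.42 (adjusted p = 0.61, limma). Its size depended on the method, with -3.0 and -2.5 at pseudocounts of 0.1 and 0.5, and -0.80 on the reads with edgeR or DESeq2. The limma difference was decided by OVA replicate 10, and without that library it was -0.45. Without OVA replicates 6, 7 and 8 it was -5.0 (unadjusted p = 0.012, limma), with 1 of the 2 remaining OVA libraries at 0.

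The sum of the X and Y copies varied much less than Eif2s3y. It was 2792 ± 255 in PBS and 2673 ± 103 in OVA (SD, n = 5 each), a log2 difference of -0.06 with an exact permutation p of 0.42, and OVA replicate 10, with the X copy alone, had 2506. Eif2s3y made up 22.0% to 39.1% of the sum in PBS and 0% to 30.1% in OVA. Xist was at 516, 402, 369, 4 and 656 in OVA replicates 6 to 10 and at most 4 in PBS. The 4 OVA libraries with Xist included the 3 highest values of Eif2s3x, and 3 of these 4, OVA replicates 6, 7 and 8, also held Eif2s3y. The sex of the mice is not given in the labels, and the part of sex-linked composition in the values of both copies was not tested.

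**Figure D3:**
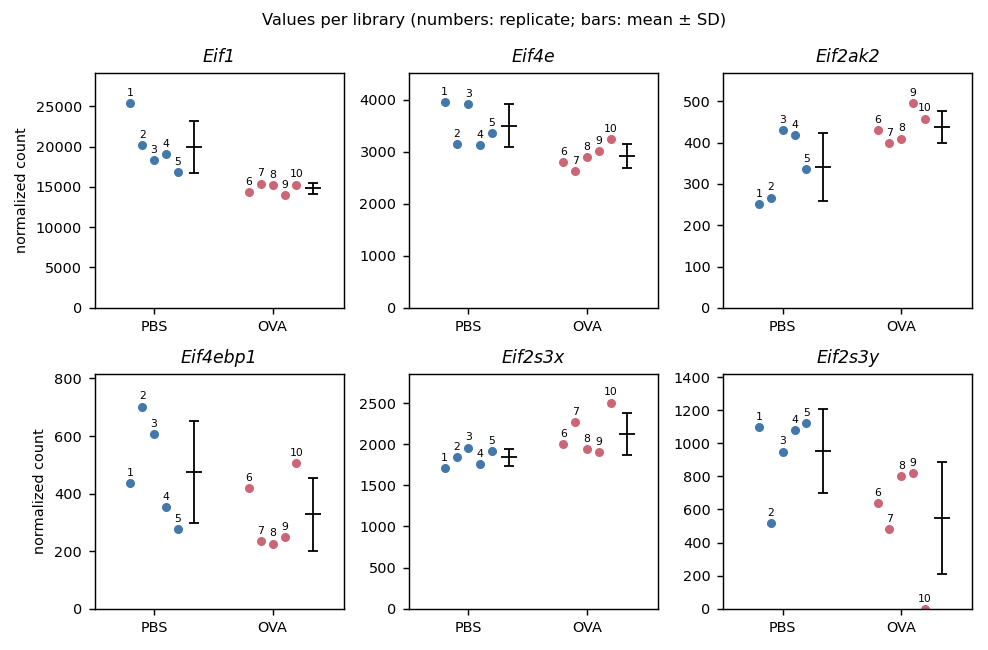
Normalized counts of 6 Eif genes in each library; numbers beside the points are the replicates (1 to 5 PBS, 6 to 10 OVA) and the bars are means ± SD (n = 5 each), with every axis starting at 0. All 5 OVA values of Eif1 are below the lowest PBS value of 16856, whereas the groups of the other 5 genes overlap, and Eif2s3y is at 0 in OVA replicate 10.

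Among the 4 eIF2 kinases, which slow general initiation under stress, Eif2ak2 had 251, 267, 429, 417 and 337 normalized counts in PBS and 430, 399, 410, 495 and 458 in OVA. PBS replicates 1 and 2 were the lowest, while PBS replicates 3 and 4 lay within the range of OVA. The log2 difference was 0.39 ± 0.18 (unadjusted p = 0.041, adjusted p = 0.49, limma), the exact permutation p was 0.063, and without PBS replicate 1 the difference was 0.29. Without OVA replicates 6, 7 and 8 it was 0.52 with an unadjusted p of 0.084 (limma). Eif2ak1 differed by 0.11, with 677 to 933 in PBS and 724 to 908 in OVA. Eif2ak3 had 93.7, 99.8, 58.2, 45.2 and 40.6 in PBS and 73.5, 37.6, 59.7, 73.3 and 44.1 in OVA, a difference of -0.18 ± 0.33 (adjusted p = 0.89, limma), and OVA replicate 7 was below the lowest PBS library. Eif2ak4, the least abundant kinase, ranged from 45.2 to 70.6 in PBS and from 17.1 to 68.5 in OVA, a difference of -0.40 with an interval of -1.18 to 0.38, which reaches past a 2-fold decrease at this depth.

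The 5 subunits of eIF2B, the target of phosphorylated eIF2, all differed by at most 0.16 in size, and all 5 intervals lay within 1.5-fold. The most negative was Eif2b1, with 1150, 988, 1044, 735 and 808 in PBS and 840, 899, 690, 679 and 1154 in OVA. Its highest value was in OVA replicate 10 and its lowest in OVA replicate 9, and the difference was -0.16 ± 0.17 (adjusted p = 0.80, limma). The most positive was Eif2b5, with 144, 340, 227, 269 and 314 in PBS and 323, 309, 230, 244 and 193 in OVA, a difference of 0.04 ± 0.24 (adjusted p = 0.97, limma). PBS replicate 1 was the lowest library of all, and without it the sign turned, to -0.15, as it did without OVA replicates 6, 7 and 8, to -0.19.

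None of the 14 eIF3 genes passed an unadjusted p of 0.05. Their median difference was -0.10, with 10 lower and 4 higher in OVA, and 10 of the 14 intervals lay within 1.5-fold. Eif3a had 2308, 3047, 3813, 2980 and 3679 in PBS and 3571, 2916, 3653, 3961 and 3783 in OVA. PBS replicate 1 was low and the remaining values overlapped, with a difference of 0.19 ± 0.15 (adjusted p = 0.69, limma), and of 0.08 without PBS replicate 1. Eif3j2 had 458, 575, 751, 397 and 492 in PBS and 442, 346, 283, 446 and 513 in OVA, the most negative of the complex at -0.39 ± 0.20 (unadjusted p = 0.071, adjusted p = 0.55, limma). Its near-identical copy Eif3j1 ranged from 42.4 to 281 in PBS and from 65.1 to 187 in OVA. The sum of both was 685 ± 192 in PBS and 524 ± 80.2 in OVA, a log2 difference of -0.36 with an exact permutation p of 0.16.

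Eif3g, which binds the scanning ribosome near the mRNA entry channel, ranged from 2748 to 3287 in PBS and from 2257 to 3048 in OVA (-0.22, unadjusted p = 0.087, limma). Eif3c, with the narrowest interval of the complex, differed by 0.01 (-0.23 to 0.24). Eif3k and Eif3i were highest in PBS replicate 1, at 15889 and 10470, and Eif3b and Eif3f in PBS replicate 2, at 1173 and 1537, each well above the other PBS libraries. Eif3e with its 4 pseudogenes summed to 12600 ± 2148 in PBS and 12672 ± 1765 in OVA, an exact permutation p of 0.88, and Eif3e alone differed by 0.08.

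In eIF4F and its helpers, 6 of 10 genes had lower means in OVA and 4 higher ones, with a median of -0.08. Eif4e, the protein that holds the mRNA cap, had 3960, 3142, 3913, 3135 and 3356 normalized counts in PBS and 2801, 2634, 2897, 3015 and 3244 in OVA. Only OVA replicate 10 was above the lowest PBS libraries. The log2 difference was -0.26 ± 0.12 (unadjusted p = 0.044, adjusted p = 0.50, limma), with an exact permutation p of 0.024. At the same library total it was -0.15 and no longer had an unadjusted p under 0.05. Without OVA replicates 6, 7 and 8 it was -0.16 (unadjusted p = 0.43, limma). The 4EHP gene Eif4e2, a cap-binding repressor, differed by -0.09 and Eif4e3 by -0.08.

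Eif4g3 was the most positive, with 279, 504, 363, 346 and 435 in PBS and 454, 436, 432, 432 and 500 in OVA. The OVA libraries lay close together inside the range of PBS, and the difference was 0.25 ± 0.16 (adjusted p = 0.63, limma). It was 0.14 without PBS replicate 1, and 0.36 with an unadjusted p of 0.039 without PBS replicate 2 (limma). Eif4g1 ranged from 540 to 1047 in PBS and from 666 to 841 in OVA (0.14). Eif4g2 ranged from 15915 to 18970 and from 14388 to 18293 (-0.11). Eif4a1 differed by -0.09, and its sum with Eif4a-ps4 was 6547 ± 1446 in PBS and 6494 ± 509 in OVA, an exact permutation p of 0.88. Eif4a1 held 41.6% to 51.6% of that sum, so that the reads were divided about evenly between the gene and a copy that differs at 1 coding base. Eif4a2 differed by -0.20, Eif4b by 0.04 and Eif4h, which with Eif4b assists the helicase, by 0.12.

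**Figure D4:**
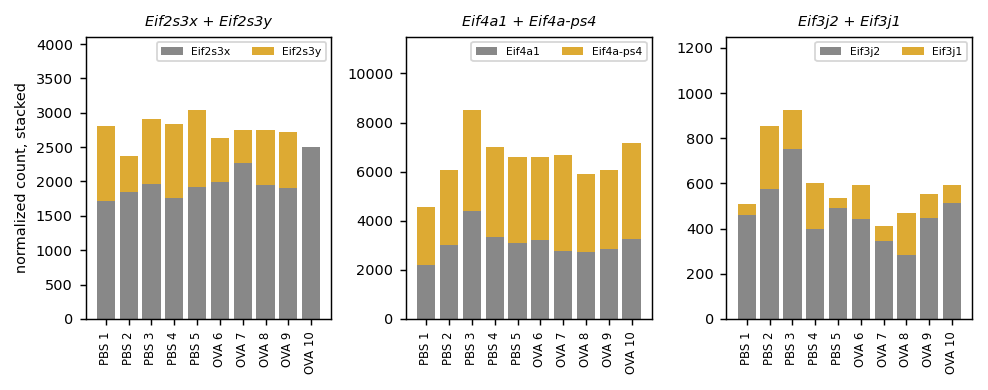
Normalized counts per library of 3 pairs of near copies, stacked: Eif2s3x and Eif2s3y, Eif4a1 and its pseudogene Eif4a-ps4, and Eif3j2 and Eif3j1. OVA replicate 10 holds Eif2s3x alone at 2506, the bars of Eif4a1 and Eif4a-ps4 divide about evenly in every library, and Eif3j1 holds 7.94% to 39.7% of its sum.

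The 4E-binding proteins and the transporter Eif4enif1 all had lower means in OVA, with a median of -0.23, and none passed an unadjusted p of 0.05. Eif4ebp1, the inhibitor that releases eIF4E when mTORC1 phosphorylates it, had 438, 702, 606, 353 and 276 normalized counts in PBS and 419, 236, 227, 250 and 506 in OVA. PBS replicates 2 and 3 were the highest, OVA replicates 7, 8 and 9 the lowest, and OVA replicates 6 and 10 lay among the PBS libraries. The difference was -0.53 ± 0.28 (unadjusted p = 0.080, adjusted p = 0.57, limma), the exact permutation p was 0.16, and without OVA replicate 10 it was -0.71. Without PBS replicate 2 it was -0.37 (unadjusted p = 0.21, limma). The ratio of Eif4ebp1 to Eif4e was 0.137 ± 0.055 in PBS and 0.111 ± 0.038 in OVA. Eif4ebp2 had 1069, 1819, 917, 1316 and 1358 in PBS and 1161, 1714, 1235, 1067 and 1191 in OVA, a difference of -0.01 ± 0.18 (adjusted p = 0.99, limma) with full overlap. Per kilobase, both inhibitors were near each other, at 201 and 222. Eif4enif1, which carries eIF4E into the nucleus, differed by -0.23.

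Of the remaining 8 members, Eif5a had 27267, 23806, 19765, 18295 and 16140 in PBS and 16459, 17105, 14205, 14468 and 22148 in OVA. PBS replicates 1 and 2 and OVA replicate 10 were the highest, and the difference was -0.31 ± 0.17 (unadjusted p = 0.088, adjusted p = 0.58, limma). Its sum with Eif5al3-ps differed by -0.32, with an exact permutation p of 0.095. Eif5a2, at a level lower by orders of magnitude, had 68.4, 44.8, 33.2, 39.8 and 80.3 in PBS and 81.7, 54.5, 67.3, 76.9 and 56.7 in OVA, a difference of 0.39 ± 0.30 (adjusted p = 0.69, limma) with overlap. Eif5, which makes eIF2 hydrolyse GTP at the start codon, differed by -0.05, but PBS replicate 1 had 979 against 2802 to 2936 in the other PBS libraries. Without PBS replicate 1, Eif5 passed an unadjusted p of 0.05 as lower in OVA, where OVA replicate 10 had 1601 against 2366 to 2488.

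The subunit joining factor Eif5b (1288 to 1889 in PBS and 1366 to 1521 in OVA) and Eif6, which keeps the ribosomal subunits apart (1246 to 2189 and 1205 to 1779), differed by -0.10 and -0.15. Eif4a3 differed by -0.04 with an interval of -0.29 to 0.21. Eif4a3l1 and Eif4a3l2, its copies, differed by -0.51 and 0.01.

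The genes that act beside the initiation factors were examined in lists, and none passed an adjusted p of 0.05. At an unadjusted p under 0.05, 2.65% of all rows were lower in OVA and 7.12% higher. Of 13 placed initiation partners, 2 were lower in OVA at an unadjusted p under 0.05 and none higher, with a median of -0.10. These were Pdcd4, an inhibitor of the eIF4A helicase, with a mean of 22625 in PBS and 16725 in OVA (-0.46, adjusted p = 0.33, limma), and Paip2, a repressor of the poly(A)-binding protein, with 5339 and 4483 (-0.25, adjusted p = 0.50, limma). Of 9 genes of the mTORC1 axis, 2 were higher and none lower, with a median of 0.11. These were Tsc1 and Tsc2, which form the complex that restrains mTORC1, at 0.63 and 0.37 (adjusted p = 0.34 and 0.49, limma).

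Of 9 placed genes of the integrated stress response, the program set off by eIF2 kinases, 1 was lower, with a median of -0.11. It was Asns, asparagine synthetase, with 1247 in PBS and 577 in OVA (-1.25, adjusted p = 0.43, limma), while Atf4, the transcription factor of this program, differed by -0.35 (adjusted p = 0.56, limma). Of 11 genes listed under elongation and termination, 1 was lower (Eef1e1, -0.36), with a median of -0.13. Not all of these genes encode elongation or termination factors. Of 90 ribosomal protein genes, 84 had lower means in OVA, with a median of -0.19, but only 3 were lower and 1 higher at an unadjusted p under 0.05. The lower means of the initiation factors therefore lay beside negative medians in the lists of partners, stress response, elongation and ribosomal proteins under the deposited scaling, but not in the mTORC1 axis, with a median of 0.11. Nf1 was at 22.2 to 52.8 normalized counts over all libraries, with a difference of 0.34 (adjusted p = 0.76, limma).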

How the data were processed

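RNA of spleen CD3+ T cells was sequenced in 5 PBS and 5 OVA libraries (TruSeq RNA kit, Illumina HiSeq). Per the submitters' processing notes, the authors used bcl2fastq, STAR 2.6.1d, Partek 9.0, DESeq2 and build mm10. The deposited values are a signal in the form of normalized counts: the authors counted reads per gene and divided them by 1 median-ratio size factor per library. How reads matching several genes were counted, and whether strand was used, is not given in the sources used here. Reads were recovered by dividing by the value of 1 read in each library, and 99.9% or more of the results were whole to within 0.1 (20617 rows, 6835696 to 29915782 reads per library). Every value column belongs to 1 library, and no library was left out of the comparisons unless stated.

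Members, role groups and lists were chosen with earlier results of these data known. The names were compared with GENCODE M21, which holds 97.7% of them, 99.5% of these at the same chromosome and start. The hidden Markov model for the distance of values from names allowed -10 to 40 rows with a 0.002 probability of a step at any row, and placed 91.2% of the rows with a probability above 0.9. In a check on the real rows, realigned by the model's own placement and with the values of 20 names removed, it placed 96.9% of the rows exactly. This measures whether the model recovers its own placement, not whether that placement is right. Genes of the lists were used only where placed with a probability of at least 0.9. The Eif pseudogenes were taken 6 rows above their names, with a probability of 0.707 (Eif5al3-ps) to 0.987 (Eif1-ps1). From the list of ribosomal proteins, which was defined by name, the S6 kinases and Rps19bp1 were taken out after the data were seen.

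Rows averaging 1 normalized count or more, 20249 in all, entered limma (version 3.58.1, R 4.3.3) after the transformation log2(normalized count + 1), with the variance trend option and adjustment by Benjamini and Hochberg. Single values were compared by exact two-sided permutation over all assignments of 5 against 5 libraries, without adjustment. On simulated data with 100 of 20249 rows changed by 1 on the log2 scale and 100 changed by 3, limma recovered 71 and 100 with 4 false calls, edgeR 75 and 100 with 4, and DESeq2 70 and 100 with 14. The simulation gave all rows the same dispersion and changed only rows averaging at least 10 normalized counts. These rates are therefore not the power of the tests in the real libraries. The alternatives were pseudocounts of 0.1 and 0.5, each library at the same total, quantile normalization, no minimum, a minimum mean of 10, DESeq2 1.42.0 or edgeR 4.0.16 applied to reads, each library left out, OVA replicates 6, 7 and 8 left out together, and other distances of values from names. Values in every library are given for members with an unadjusted p under 0.05 or without overlap, for the largest and smallest difference in each role with a mean of at least 50, and for Eif2s3x and Eif2s3y. Coding sequences were aligned with Biopython 1.88 from GENCODE M21 transcripts (GRCm38). Protein sequences were not used here.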

Additional observations from a re-analysis of the deposited data

Results flagged for a closer look

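Within a group of 5 libraries, a library was singled out where its gap to the nearest other library was a large share of the range of the group (Dixon's ratio). Of the 110 groups (55 members in PBS and in OVA), 14 met this rule. For independent and normally distributed values the rule gives 5.5 (1 in 20), but members share libraries and counts need not be normal. The share of all rows that met the rule is not given here, so that the 14 cannot be read as an excess particular to the Eif genes. No cause was tested.

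4 of the scanning, eIF2 and eIF2B genes had a single high library: Eif1ax in PBS replicate 3 (3517 normalized counts against 1848 to 2259, ratio 0.753), Eif2b2 in OVA replicate 7 (1665 against 1064 to 1098, ratio 0.943), Eif2d in OVA replicate 10 (1091 against 856 to 910, ratio 0.770) and the kinase Eif2ak4 in PBS replicate 2 (70.6 against 45.2 to 49.8, ratio 0.816). Eif2s3y was low in PBS replicate 2 (520 against 950 to 1122, ratio 0.715).

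In eIF3, PBS replicate 2 was high for Eif3b (1173 against 531 to 703, ratio 0.732) and Eif3f (1537 against 861 to 986, ratio 0.815). PBS replicate 1 was high for Eif3i (10470 against 7173 to 7952, ratio 0.764) and Eif3k (15889 against 7920 to 9751, ratio 0.770).

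Eif4e3 was low in PBS replicate 3 (174 against 300 to 337, ratio 0.768) and in OVA replicate 7 (171 against 286 to 317, ratio 0.785). Eif4ebp2 was high in OVA replicate 7 (1714 against 1067 to 1235, ratio 0.739). Eif5 was low in PBS replicate 1 (979 against 2802 to 2936, ratio 0.931) and in OVA replicate 10 (1601 against 2366 to 2488, ratio 0.863).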

How the results depend on the processing

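No paired analysis was run because the labels give no pairing between the PBS libraries (1 to 5) and the OVA libraries (6 to 10). No member passed an adjusted p of 0.05 under any of the 23 settings run. The number of rows of the whole table that passed was 1, and 0 with a pseudocount of 0.1 or quantile normalization, 2 with edgeR, 173 with DESeq2 and between 0 and 135 when each library was left out, with 135 without PBS replicate 5. It was 0 without OVA replicates 6, 7 and 8, an alternative chosen after the data were seen, where 1 member (Eif2s3y) and 3.60% of all rows had an unadjusted p under 0.05, the members' median was -0.098 and Eif2b5 turned to -0.194. The number of members at an unadjusted p under 0.05 was 3, and 1 to 6 when each library was left out. It was 1 (Eif1) without OVA replicate 6, 8 or 9 (1.82% of the members, against 7.27% to 8.01% of all rows) and 6 without OVA replicate 10 (10.9%, against 10.9% of all rows), namely Eif1, Eif3g, Eif3j2, Eif4e, Eif4ebp1 and Eif5a. Apart from that alternative chosen afterwards, 18 others were run for single genes. Eif1 passed in all 18, with an adjusted p from 0.0840 to 0.594, Eif2ak2 in 11 and Eif4e in 9. Without OVA replicates 6, 7 and 8, Eif1 did not pass (unadjusted p = 0.072, limma).

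The median difference of the members moved from -0.10 to 0.0081 at the same library total and to -0.016 with quantile normalization. The causes were not tested. Of the 16 genes given in full, 13 kept their direction in these 18 alternatives. Eif4ebp2 turned to 0.107 at the same total and 0.0496 with quantile normalization, and ran from -0.12 to 0.127 when each library was left out, Eif2b5 from -0.155 to 0.153 and Eif1a from -0.0253 to 0.0915. With values taken 5 or 7 rows above the name or on its own row, the members' median stayed between -0.11 and -0.10, with 2 or 3 at an unadjusted p under 0.05. These summaries therefore do not tell the distances apart, and the values of single genes rest on the distance of 6 rows. PBS replicate 3 is the shallowest library, which limits genes near its floor, such as Eif4a3l1.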

Other observations

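Among the 9 Eif pseudogenes, Eif4a-ps4 (a mean of 3339 normalized counts in PBS) and Eif3s6-ps2, a copy of Eif3e (2566), carried the most reads. Eif3s6-ps2 is 97.3% identical to Eif3e over 1321 aligned bases. Eif1-ps1 had a mean of 686 in PBS and a log2 difference of -0.44 (unadjusted p = 0.021, limma), beside -0.41 for Eif1. Of all rows, 9.77% had an unadjusted p under 0.05 (limma). Eif1-ps2 differed by -0.38 (unadjusted p = 0.28, limma). These copies are 97.58% and 97.35% identical to Eif1, so that their values may include reads of Eif1 and are not independent of it.

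The members' values summed to 182897 to 215126 normalized counts in PBS and 165732 to 181849 in OVA, without overlap, whereas their shares of all normalized counts overlapped (0.952% to 1.01% and 0.927% to 1.04%). Of the 55 members, 13 had their highest value in PBS replicate 1 and 12 their lowest there. The highest was in PBS replicate 3 for 13 and in PBS replicate 2 for 12, and the lowest in OVA replicate 9 for 14.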
